A study of Homo sapiens with 12 samples.

Results

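The small noncoding RNAs of differentiated 5-LOΔ MM6 cells were compared with those of wild-type MM6 cells, both without LPS. Mono Mac 6 (MM6) is a human monocytic leukaemia cell line, and its 5-LOΔ clones carry a CRISPR/Cas9 knockout of ALOX5, which encodes 5-lipoxygenase (5-LO). Each genotype was sequenced in 3 libraries (6 of the 12 in the series), and all cells had been differentiated with calcitriol (50 nM) together with TGF-β (1 ng/mL), for 72 h by the sample labels and the study's description of this sequencing, while its general culture methods give a longer time. The cells of the other 6 libraries had in addition received 1 µg/mL LPS for 6 h, and they appear here only as a second reading of the same RNAs. The labels do not name the clone behind a knockout library, so knockout and clone cannot be told apart. Small RNA sequencing does not cover the ALOX5 transcript, and the genotype was not checked from these data.

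Every entry of the table without LPS except the miRNA precursors was taken, which gave 995 of 1231 entries. They comprise 359 piRNA entries, 287 snoRNAs, 285 mature miRNAs, 57 tRNAs, 4 small cytoplasmic RNAs (all Y RNAs) and 3 rRNAs. For each entry the authors' mean of the normalized counts of the 3 libraries was given per genotype. A ratio here is the log2 of the knockout mean over the wild-type mean, and the level of an entry is the average of both means. At a level of at least 50 there were 444 entries (244 snoRNAs, 98 piRNA entries, 74 mature miRNAs, 21 tRNAs, 4 Y RNAs and 3 rRNAs), which held 99.97% of the signal in both genotypes.

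Small nucleolar RNAs (snoRNAs) guide the chemical modification of ribosomal RNA. Those of the box C/D class guide ribose methylation, those of the box H/ACA class guide pseudouridylation, and most are released from the introns of host genes. Mature miRNAs direct Argonaute proteins to messenger RNAs through a short seed at their 5′ end. Transfer RNAs (tRNAs) deliver amino acids to the ribosome, and Y RNAs bind the protein Ro60 and are cut into stable fragments in many cells. PIWI-interacting RNAs (piRNAs) silence transposons in the germ line, and many entries of piRNA catalogues share sequence with rRNA, tRNA or snoRNA, so a piRNA entry in a monocytic line is named here only by its catalogue number.

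The sequences of the abundant RNAs on which the results turn are given first. The next 5 are box C/D snoRNAs (GENCODE on GRCh37, hg19 coordinates), with the letters TGATGA near the 5′ end and CTGA near the 3′ end in capitals, which are the C box core and the D box of this class. The pairs U95 and U96a, and U106 and HBII-99, are shown because each pair shares a host gene.
U95: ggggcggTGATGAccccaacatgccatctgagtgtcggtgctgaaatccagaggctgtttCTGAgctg
U96a: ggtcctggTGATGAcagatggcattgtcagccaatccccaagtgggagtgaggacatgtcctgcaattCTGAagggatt
U106: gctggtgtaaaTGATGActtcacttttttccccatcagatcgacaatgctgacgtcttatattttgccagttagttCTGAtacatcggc
HBII-99: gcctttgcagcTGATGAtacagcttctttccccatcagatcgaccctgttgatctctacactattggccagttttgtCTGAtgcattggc
U104: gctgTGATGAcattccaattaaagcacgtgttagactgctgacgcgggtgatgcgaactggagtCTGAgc
U95 (SNORD95, 68 bases) lies at chr5:180670312-180670379 and U96a (SNORD96A, 79 bases) at chr5:180668814-180668892, both on the reverse strand within RACK1, the gene of a ribosomal scaffold protein. U106 (SNORD12C, 89 bases) lies at chr20:47895477-47895565 and HBII-99 (SNORD12, 90 bases) at chr20:47897220-47897309, both on the forward strand within the noncoding gene ZFAS1. U104 (SNORD104, 70 bases) lies at chr17:62223443-62223512 on the forward strand within SNHG25. U106 and HBII-99 share a run of 18 bases, tttccccatcagatcgac, which starts at base 27 of each. Both motifs were found, on the strand of the RNA, in 95 of the 123 box C/D snoRNAs with a sequence (77.2%) and in 0 of the 42 box H/ACA snoRNAs, when TGATGA had to start no more than 20 bases after the first base and CTGA had to lie within the last 20. Of the 42 box H/ACA snoRNAs, 40 held ACA, the letters of their own box, in the last 8 bases (95.2%).

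The mature miRNAs below (RefSeq, GRCh38.p14) are the most abundant members of the let-7 family and its highest and lowest in ratio, the miRNAs with the highest ratios and abundant myeloid miRNAs. Capitals mark the seed (bases 2 to 8).
let-7a-5p: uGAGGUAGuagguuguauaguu
let-7f-5p: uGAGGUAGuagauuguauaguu
let-7b-5p: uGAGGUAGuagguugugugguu
let-7e-5p: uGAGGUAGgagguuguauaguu
miR-30e-3p: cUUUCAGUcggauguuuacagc
miR-101-3p: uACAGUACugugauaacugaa
miR-21-5p: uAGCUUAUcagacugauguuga
miR-155-5p: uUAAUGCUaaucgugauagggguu
The 4 let-7 sequences share 1 seed. In GRCh38.p14, let-7b-5p lies at chr22:46113691-46113712, miR-21-5p at chr17:59841273-59841294 and miR-155-5p at chr21:25573983-25574006, each on the forward strand.

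The precision of these values differed with the level. No library has a value of its own in the table, so a mean is printed without an SD, and entries with a mean above 20, whose reads were often recovered in more than 1 way, were not compared by library. Means of at most 20 can take only values that whole reads in 3 libraries give, and for 76 of 77 entries with a level of at least 5 and both means at or below 20 the reads of all 6 libraries were recovered in 1 way. The dispersion of their counts between libraries beyond sampling noise, taken over all 76, gave a coefficient of variation of 0.208 in the wild type and 0.366 in the knockout. In the wild type the variance of the median entry was 0.747 times that of sampling alone (mean 1.57), and in the knockout it was 1.26 times (mean 2.20). By class the coefficient ran from 0 (10 snoRNAs) to 0.302 (12 tRNAs) in the wild type and from 0.193 (tRNAs) to 0.464 (21 piRNA entries) in the knockout. If abundant entries of every class vary as the 76 do together, the standard error of a ratio is 0.35, and a ratio has to pass 0.69 in size to lie outside a 95% range. This applies 1 limit to every class and carries the spread of low entries over to high ones, which was not tested. Where counting error is not small, it was added to the limit of that entry. Of the 444 entries, 59 lay beyond the limit so set, 24 higher and 35 lower in 5-LOΔ MM6 cells. The higher and lower ones numbered 10 and 11 for snoRNAs, 6 and 16 for piRNA entries and 8 and 1 for mature miRNAs. For tRNAs they numbered 0 and 6, and for Y RNAs 0 and 1. In bulk RNA, fewer cells that hold an RNA and less of it per cell cannot be told apart. The 8 monocyte and macrophage miRNA entries at the level are part of 9 listed, whose normalized counts summed to 4583 in wild-type and to 6697 in 5-LOΔ MM6 cells, and the ratios of the 8 ran from -0.34 to 0.64. Of markers of other cell types (liver, muscle, nerve, epithelium, lymphocytes, red cells), 3 were listed and 0 reached the level. Their normalized counts summed to 18.2 in wild-type and to 42.3 in 5-LOΔ MM6 cells. A single entry held the highest mean in both, 16.2 and 42.3, and was thus higher in the knockout, where it made up the whole sum. Its spread between libraries was not tested.

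The classes of small RNA did not keep the same shares. In wild-type cells rRNA made up 16.9% of the summed means, and in 5-LOΔ MM6 cells 22.7%, which is 5.79 percentage points more. The share of snoRNAs was 64.9% and 59.9%, a difference of -4.99 points. The shares of piRNA entries (16.2% and 15.7%) and mature miRNAs (0.960% and 0.942%) were closer. The miRNA share turned with its make-up: without the miRNA entries on annotated snoRNAs its log2 ratio was 0.18 in place of -0.03. The tRNA share was 0.622% and 0.430%, and the Y RNA share was 0.312% and 0.220%. Shares are bound to each other, so a larger share of rRNA lowers all others. Without the rRNA entries the log2 ratio of the snoRNA share was -0.011 in place of -0.12, that of piRNA entries 0.06 in place of -0.05 and that of mature miRNAs 0.08 in place of -0.03. The tRNA share stayed lower, at -0.43 in place of -0.53, as did the Y RNA share, at -0.40 in place of -0.51.

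**Figure D1:**
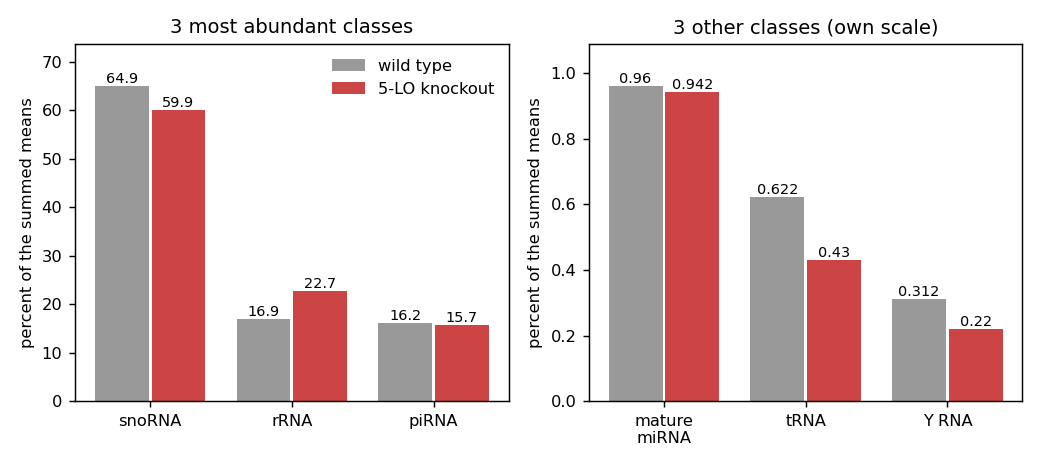
Bars give each RNA class as a percent of the summed means (y axis) in wild-type and 5-LO knockout cells, with the less abundant classes on a scale of their own. The rRNA bar is higher in the knockout (22.7% against 16.9%), and the tRNA (0.430% against 0.622%) and Y RNA bars (0.220% against 0.312%) are lower.

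The sums behind these shares differed as follows. Over all 995 entries the sum was 10666084 normalized counts for wild-type and 12035201 for 5-LOΔ MM6 cells, a log2 ratio of 0.17. The log2 ratio of the class sums was 0.60 for rRNA, 0.15 for mature miRNAs, 0.13 for piRNA entries, 0.06 for snoRNAs, -0.33 for Y RNAs and -0.36 for tRNAs. The rRNA sum was thus the furthest above 0 and the tRNA sum the furthest below it.

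A single RNA carried most of the difference in rRNA. 5S rRNA, the small RNA of the large ribosomal subunit that RNA polymerase III makes, had a mean of 1665280 in the wild type and 2600090 in the knockout, a ratio of 0.64 (1.56-fold). This ratio is within 0.69, and the spread of 5S between libraries was not measured. 5S held 15.6% of all signal in the wild type and 21.6% in the knockout, and its difference equalled 68.3% of the difference between the genotype sums. The entry for the large-subunit rRNA was also higher, with 74455 and 86116 (0.21), whereas the small-subunit entry was lower, with 66232 and 48287 (-0.46). The 3 rRNA entries therefore did not share a direction, and 5S alone set the sign of the class sum.

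A few RNAs held most of the signal. In wild-type cells 8 entries made up 50% of it and in 5-LOΔ MM6 cells 7, and 90% was reached with 56 and 48 entries. The 10 entries of highest level held 55.2% and 59.8%. After 5S these were the box C/D snoRNAs U104 (725018 in the wild type and 974616 in the knockout, ratio 0.43), U29 (871321 and 701208, -0.31), U26 (522604 and 485850, -0.11), U44 (460732 and 439698, -0.07), U81 (297076 and 322681, 0.12), U50 (281892 and 250453, -0.17), U102 (217366 and 301860, 0.47) and HBII-420 (182082 and 329849, 0.86), and the entry piR_001207 (664403 and 785850, 0.24). U29 led U104 in wild-type cells and U104 led U29 in the knockout, whereas with LPS U29 led in both genotypes (782402 and 798217, against 650211 and 752977 for U104). Only HBII-420, which lies within SNHG12, was past 0.69.

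By type, the ratios of snoRNAs centred near 0, and nearly all tRNAs and all Y RNAs were lower. Over the 444 entries the median ratio was -0.0006, with 221 of them higher in 5-LOΔ MM6 cells. The median was 0.05 for snoRNAs, -0.28 for piRNA entries, 0.22 for mature miRNAs, -0.43 for tRNAs, -0.37 for Y RNAs and 0.21 for the 3 rRNAs. The means are used as the authors scaled them. Scaled instead to equal sums over all entries, every ratio would be 0.17 lower, and the medians would be -0.13 for snoRNAs and 0.04 for mature miRNAs, while those of tRNAs (-0.61), Y RNAs (-0.54) and piRNA entries (-0.45) would keep their sign. At least 2-fold higher in 5-LOΔ MM6 cells were 8 entries (1.8% of the 444) and at least 2-fold lower 19 (4.28%), together 27 (6.08%). With at least 50 in both genotypes, 4 were higher and 17 lower. The piRNA entries made up 12 of the 19 lower ones with 1 higher, and tRNAs 3 with 0 higher. SnoRNAs gave 4 higher and 2 lower, mature miRNAs 3 higher and 1 lower (let-7e-5p), and Y RNAs 1 lower. Just inside the 2-fold limit lay piR_017723 (107 and 53.7), U36A (-1.01) and piR_019521 (1.02), and just outside it tRNA-Gly-GGA (-0.98), HBII-85-11 (-0.97) and piR_020619 (0.95).

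**Figure D2:**
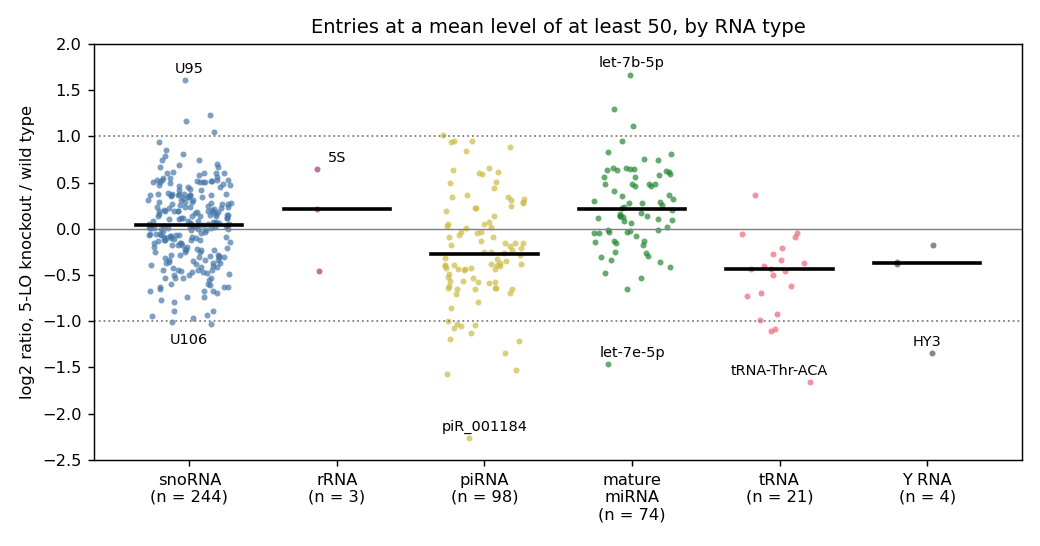
Each point is 1 entry at a level of at least 50, placed by RNA type (x axis) and by log2 ratio, knockout over wild type (y axis). Thick lines are medians (-0.43 for tRNAs, 0.22 for mature miRNAs) and dotted lines mark 2-fold; nearly all tRNAs lie below 0, and snoRNAs spread evenly around it.

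The spread of the ratios was widest at the lowest level and narrowest at the highest. The standard deviation over entries was 0.62 at levels from 50 to 200 (125 entries), 0.48 from 200 to 1000 (113), 0.52 from 1000 to 10000 and 0.43 above 10000 (100). The medians of these groups were 0.08, 0.02, -0.12 and -0.04. Counting error shrinks with the level, and above 10000 its standard error was under 0.02 for each named entry. The spread between libraries, as carried over from the low entries, gives a standard error of 0.35 for a ratio. Its part in the 0.43 above 10000 was not tested. The share past 2-fold was 12% in the lowest group and 3% in the highest.

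Among the snoRNAs U95 had the highest ratio. Its mean was 6773 in the wild type and 20665 in the knockout, a ratio of 1.61 (3.05-fold; 95% counting interval 1.59 to 1.63). U96a, from the same host RACK1, had 22130 and 19196, a ratio of -0.21. The rank of the pair turned, with U96a the more abundant in wild-type cells and U95 in the knockout. With LPS it did not turn, with 18764 and 19923 for U96a (0.09) and 5624 and 11786 for U95 (1.07). The other snoRNAs past 2-fold upwards were far less abundant, namely HBI-115 (41.6 and 97.7, 1.23), ACA67 (116 and 260.0, 1.16) and U99 (434 and 898, 1.05). HBI-115 reached the level of 50 only through its knockout mean.

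The 3 snoRNAs of ZFAS1 had lower means in the knockout. U106 had 108867 in the wild type and 53350 in the knockout (-1.03), the lowest ratio of the 244 snoRNAs. HBII-99 had 104608 and 60538 (-0.79). HBII-99B, the third of this host by its usual name SNORD12B, had 203626 and 156135 (-0.38), which is within 0.69. Whether reads were shared between these entries was not tested.

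The introns of RPL7A, a ribosomal protein gene, gave 3 snoRNAs, all lower. U36A had 913 and 453 (-1.01), U36B 1015 and 668 (-0.60) and U24 21896 and 17377 (-0.33). The 3 of RPL4 were lower too, with ratios of -0.55 (U18A), -0.28 (U18C) and -0.02 (U18B). In RABGGTB, U45A had 138036 and 211900 (0.62) and U45B 11794 and 14364 (0.28). Of the RPL7A, RPL4 and RABGGTB snoRNAs, U36A alone was beyond 0.69.

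GAS5 is a noncoding host gene with snoRNAs in most of its introns, and it was followed as a list because its snoRNAs come from 1 transcript. Of its 10 snoRNAs 9 were lower, with a median of -0.35 against -0.0006 over all entries. U79 had the lowest ratio (7846 and 4927, -0.67), and U47 (-0.45), U74 (-0.45) and U78 (-0.45) followed. The most abundant, U44 (-0.07) and U81 (0.12), stayed near 0, so that the sum over the 10 differed by only -0.04. The 8 snoRNAs of SNHG1 had a median of -0.11 and ran from -0.49 (U22) to 0.36 (U31). The 2 of RPL13A, of which 1 was lower with equal sums, were U32A (76896 and 79894, 0.06) and U33 (13244 and 16771, 0.34).

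Copy families on chromosome 15 parted from each other. HBII-52 and HBII-85 (SNORD115 and SNORD116) are arrays of near-identical box C/D snoRNAs within SNHG14, in the imprinted region of Prader-Willi syndrome. All 34 HBII-52 copies at the level were higher in 5-LOΔ MM6 cells, with a median of 0.51 and a range of 0.16 to 0.81, and 33 of 34 were with equal sums of all entries. The most abundant copies, HBII-52-18 and HBII-52-19, each had 2917 and 4445 (0.61). Of the HBII-85 copies 12 of 23 were higher, with a median of 0.01 and a range of -0.97 to 0.53, and 8 of 23 were with equal sums. HBII-85-8 had 18088 and 21282 (0.23) and HBII-85-16 had 19325 and 15274 (-0.34). Copies share reads: 9 of the 34 HBII-52 entries had the same pair of means as another, which leaves 28 distinct pairs, and the 34 are not 34 separate measurements.

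**Figure D3:**
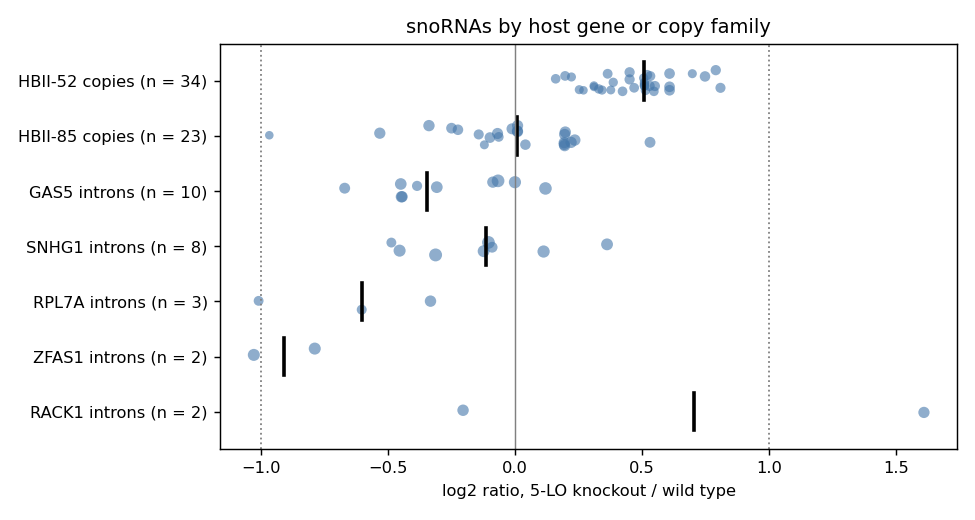
Points are snoRNAs at a level of at least 50, placed by log2 ratio (x axis) and by host gene or copy family (rows), with larger points for higher levels on a log10 scale and a black bar at the median. All 34 HBII-52 copies lie above 0 and 9 of the 10 GAS5 snoRNAs below it, and the RACK1 snoRNAs lie far apart (1.61 and -0.21).

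The medians of the main box classes were close to each other. The median was 0.02 for 152 box C/D snoRNAs, 0.03 for 59 box H/ACA snoRNAs and 0.30 for 17 snoRNAs of Cajal bodies, which guide the modification of spliceosomal RNAs. Of these 17, 14 were higher (11 with equal sums, median 0.12), with U89 (44.2 and 84.5, 0.93) at the top, and U90 was lower (759 and 395, -0.94). The 44 entries with ACA names, an older name for box H/ACA and some Cajal body RNAs, had a median of 0.04 (-0.13 with equal sums). The most abundant of them were ACA34 (10001 and 11751, 0.23) and ACA11 (6558 and 6769, 0.05).

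Nearly all tRNA entries were lower. Of 21 at the level 20 were lower in 5-LOΔ MM6 cells, and of all 57 tRNA entries 53 were lower. The most abundant were tRNA-Glu-GAG_ (24323 and 19271, -0.34), tRNA-Asp-GAY (14904 and 10571, -0.50), tRNA-Gln-CAA_ (10903 and 10535, -0.05), tRNA-Ser-TCA(m) (2536 and 1845, -0.46) and tRNA-Gly-GGY (2396 and 2077, -0.21), each named by amino acid and codon as in the table. Among the 21 at the level, the lowest ratios were those of tRNA-Thr-ACA (95.1 and 30.1, -1.66), tRNA-Val-GTG (603 and 281, -1.10) and tRNA-Asn-AAC (307 and 145, -1.08). The exception was tRNA-Tyr-TAC (87.6 and 113, 0.37). Beyond the limit of spread and counting error lay 6 of the 21 tRNAs, all lower, against 35 lower and 24 higher of all 444 entries. A size-selected library holds whole tRNAs and tRNA fragments alike, and the table does not separate them.

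Y RNAs were lower in all 4 cases. HY4 had 18730 in the wild type and 16578 in the knockout (-0.18), HY1 6522 and 5092 (-0.36), HY5 4187 and 3229 (-0.38) and HY3 3870 and 1526 (-1.34; 95% counting interval -1.39 to -1.29). HY3 was the only one past 2-fold.

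More piRNA entries were lower than higher, while their sum was higher as the authors scaled it. Their share of all signal was slightly lower (16.2% in the wild type and 15.7% in the knockout). Of 98 at the level 66 were lower. The table joins several catalogue names in 28 of the 98, and 27 of these 28 were lower (median -0.57), whereas 39 of the 70 with 1 name were (median -0.08). Joined entries can share names with each other, as those of piR_000794 and piR_022628 do, so the 28 are not 28 separate measurements. The most abundant were piR_001207 (0.24), piR_001159 (180325 and 175844, -0.04), piR_016735 (119523 and 231420, 0.95), piR_000552 (114941 and 87706, -0.39) and piR_017194 (89881 and 81963, -0.13). At a level of at least 50, the lowest ratio in any class was that of piR_001184, with 2958 and 617 (-2.26, or 4.80-fold lower). Among piRNA entries it was followed by piR_019912 (261 and 87.5, -1.57), piR_001170 (32226 and 11219, -1.52) and piR_020582 (372 and 147, -1.34). The single piRNA entry at least 2-fold higher, piR_019521, had a level near the limit (34.9 and 70.6, 1.02) and reached it only through the knockout. Of the 98, 16 were lower and 6 higher beyond the limit of spread and counting error, against 35 lower and 24 higher of all 444 entries.

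More mature miRNAs were higher than lower. Outside the cluster of miR-99b, let-7e and miR-125a, of which let-7e-5p (197 and 71.2, -1.46) was the only entry at the level, no miRNA at a level of at least 50 was at least 2-fold lower. Of all 74, 50 were higher, and 39 were with equal sums of all entries. The highest ratios among the 74 were those of let-7b-5p (51.4 and 163, 1.67), miR-30e-3p (44.6 and 109, 1.29) and miR-101-3p (48.8 and 105, 1.11), all of modest level. miR-30e-3p and miR-101-3p had wild-type means under 50 and reached the level only through the knockout. The 95% counting interval was 1.41 to 1.93 for let-7b-5p and 0.83 to 1.39 for miR-101-3p.

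Several families had 1 sign. The seed GAGGUAG was held by 8 entries at the level, and 7 of them were higher, let-7e-5p being the exception. These 7 had a median of 0.49, and only let-7b-5p (1.67) passed 0.69. let-7f-5p had 5749 in the wild type and 8063 in the knockout (0.49), and let-7a-5p had 3886 and 6075 (0.64). The 4 entries of the miR-30 family at the level were higher, with a median of 0.64. Of these, miR-30e-3p is the opposite arm with another seed, and it reached the level only through the knockout. Among the 4 were miR-30d-5p (600 and 948, 0.66) and miR-30e-5p (0.62). The seed GAGAACU of miR-146a-5p (66.9 and 100.1, 0.58) and miR-146b-5p (1268 and 2131, 0.75), miRNAs that restrain Toll-like receptor signalling, was also higher in both. Of the miR-106b-25 cluster 3 of 3 were higher (miR-25-3p 343 and 581, 0.76, and miR-93-5p 539 and 744, 0.46). In the miR-30, miR-146 and miR-106b-25 groups only miR-30e-3p, miR-146b-5p and miR-25-3p passed 0.69. The 8 of the miR-17-92 cluster were divided, 4 higher and 4 lower (median 0.07, and -0.10 with equal sums), with miR-92a-3p (9990 and 12461, 0.32) and miR-20a-5p (1361 and 1347, -0.01) the most abundant. The 5 entries of the miR-181 family, 3 higher and 2 lower, had a median of 0.14 (-0.04 with equal sums), with miR-181a-5p at 2173 and 2387 (0.14) and miR-181b-5p at 470 and 466 (-0.01). miR-16-5p (1060 and 1038, -0.03) and miR-15b-5p (76.1 and 48.4, -0.65) were lower. In all, 12 seeds were shared by at least 2 of the 64 entries whose sequence was matched by name.

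Among myeloid miRNAs, 7 of 11 entries were higher, with a median of 0.21 (0.03 with equal sums), close to the 50 of 74 and the median of 0.22 over all mature miRNAs. miR-21-5p had 2499 and 3885 (0.64) and miR-155-5p, which inflammatory signals induce in macrophages, had 1358 and 1998 (0.56). miR-223-3p, a miRNA of the granulocyte and monocyte lineage, had 93.8 and 74.3 (-0.34). None of the 11 passed 0.69.

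Some miRNA names stand for snoRNA loci. 9 entries at the level, from the hairpins of miR-3607, miR-1291, miR-1248, miR-3651, miR-664a and miR-664b, lie on genes annotated as snoRNAs, and they held 53.4% of the miRNA sum in the wild type and 46.4% in the knockout. miR-3607-3p had 22225 and 20323 (-0.13), miR-3607-5p 22198 and 20288 (-0.13) and miR-1291 9633 and 11289 (0.23). Their median was 0.07, and that of the other 65 entries was 0.26, with 45 of the 65 higher.

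The libraries made with LPS gave a second reading of the genotypes from other samples. Of the 444 entries 352 had the same sign in both tables (79.3%), and across entries, which are not independent replicates, Pearson's r was 0.80 for snoRNAs, 0.76 for piRNA entries, 0.79 for mature miRNAs and 0.29 for tRNAs. All 27 entries past 2-fold without LPS had the same sign with LPS. Past 2-fold in both tables were 5 higher entries, which are 62.5% of the 8 without LPS and 71.4% of the 7 with LPS, and 8 lower entries, which are 42.1% of the 19 and 36.4% of the 22. The ratios with LPS were 1.07 for U95, -0.86 for U106, -0.55 for HBII-99, -1.87 for tRNA-Thr-ACA and -1.89 for piR_001184. 5S had a ratio of 0.46 with LPS, and the rRNA share was 17.1% in the wild type and 22.1% in the knockout.

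**Figure D4:**
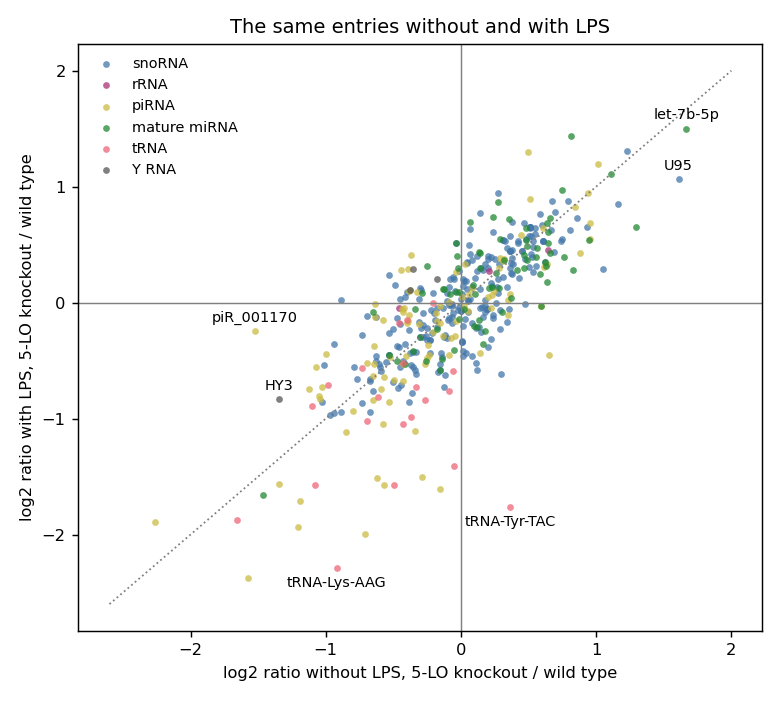
Each point is 1 of the 444 entries, with its log2 ratio of knockout to wild type without LPS (x axis) and with LPS (y axis), coloured by RNA type; the dotted line marks equal ratios. Most points follow the line, while 15 of the 21 tRNAs lie under it (tRNA-Tyr-TAC 0.37 without and -1.76 with LPS) and piR_001170 over it (-1.52 and -0.25).

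The classes differed in how far the 2 tables agreed. The median tRNA ratio was -0.43 without and -0.84 with LPS, and 21 of 21 were lower with LPS. The entries that differed by at least 1 on the log2 scale numbered 10. They included tRNA-Tyr-TAC (0.37 without and -1.76 with LPS), tRNA-Lys-AAG (-0.92 and -2.29), tRNA-Gln-CAA_ (-0.05 and -1.41), tRNA-Asp-GAY (-0.50 and -1.57) and, the other way, piR_001170 (-1.52 and -0.25). Of the Y RNAs 1 of 4 kept its sign, HY3, and their median was 0.16 with LPS. HBII-52 copies were higher in 34 of 34 cases in both tables. HBII-85 copies were lower in 22 of 23 cases with LPS (median -0.32). The difference between the tables was not tested, since neither gives values of single libraries at these levels.

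For the 76 low entries with recovered reads, libraries can be compared directly. Libraries are called here by their size factor, from the largest to the smallest, since the table gives no replicate number. With 3 libraries against 3, the smallest two-sided p of an exact permutation test is 0.10, so none of these differences can pass 0.05 in that test. No other test was run on them. In 6 entries (7.89%) all 5-LOΔ libraries were higher than all wild-type libraries, and in 16 (21.1%) all were lower. Of the 16, 8 were piRNA entries (of 21 tested), 4 mature miRNAs (of 33), 3 tRNAs (of 12) and 1 a snoRNA (of 10). Of the 6, 5 were mature miRNAs. Many of these separations were narrow, with less than 1 normalized count between the groups in 6 of the 22.

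tRNA-Ile-ATA had 11, 8 and 10 reads in the wild-type libraries and 3, 0 and 0 in the 5-LOΔ libraries, and tRNA-Thr-ACY_ had 16, 20 and 15 against 9, 4 and 2. piR_020828 had 19, 14 and 13 reads against 6, 0 and 0. piR_007768 had 8, 13 and 12 against 3, 2 and 0. These groups did not overlap, and no 5-LOΔ library reached the lowest wild-type library. In the other direction, miR-199b-5p had 5, 5 and 4 reads in wild-type and 15, 12 and 8 in 5-LOΔ libraries. let-7d-3p, the passenger strand of a let-7 hairpin, had 13, 10 and 11 against 22, 13 and 12, which after division by the size factors is 10.4, 9.85 and 12.5 against 16.5, 13.8 and 16.6. With LPS, let-7d-3p had a ratio of -0.84 and miR-199b-5p one of 0.44.

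The 5-LOΔ library of the smallest size factor stood apart in these entries. Its mean normalized count over the 76 was 7.93, against 10.8 and 10.3 in the other 5-LOΔ libraries and 10.3, 11.2 and 11.1 in wild-type. It had 6 of the 76 at 0. Without it, 7 of the 76 entries were at least 2-fold lower in place of 11, and 6 were at least 2-fold higher with and without it. Its part in the ratios of the abundant entries was not tested.

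**Figure D5:**
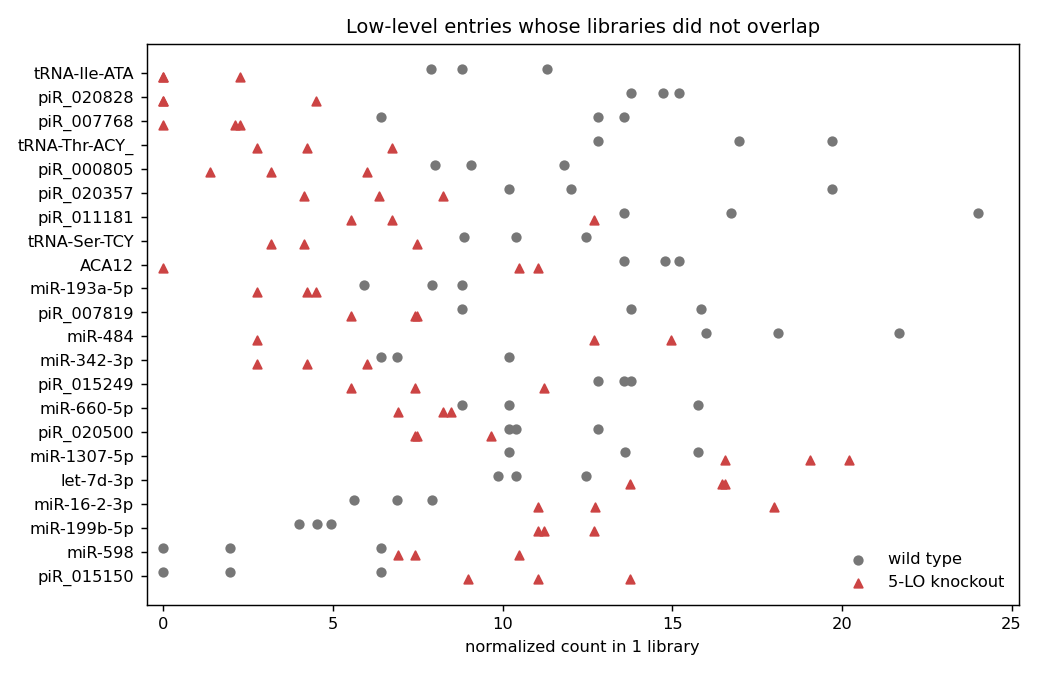
Each row is 1 of the 22 low-level entries whose 3 wild-type libraries (circles) and 3 knockout libraries (triangles) did not overlap, with the normalized count in single libraries on the x axis. In the upper 16 rows every triangle lies left of every circle and in the lower 6 rows every triangle lies right of them. The gap between the groups runs from 0.339 to 9.30 normalized counts and is under 1 in 6 of the 22 rows.

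Entries listed at 0 in a genotype had low means in the other. In wild-type 150 entries were at 0, and the highest 5-LOΔ mean among them was 9.70 (miR-31-5p), from 24, 4 and 5 reads against 0, 0 and 0. Its level of 4.85 was just under the limit of 5 for the low entries, and most of its reads came from 1 library. In 5-LOΔ MM6 cells 105 were at 0, of which miR-330-3p had the highest wild-type mean (3.15).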

How the data were processed

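Small RNA libraries (Lexogen kit, size-selected on a gel for precursor and mature miRNA, so that short snoRNAs and tRNAs also fit) were sequenced from wild-type and 5-LOΔ cells without LPS, 3 libraries each. The labels number them as replicates, and the study describes independent experiments. The authors annotated the reads against hg19 with omiRas and deposited, for every entry, normalized counts averaged within a genotype, a signal value that is not a raw count. Their scaling, aligner and versions were not given in the sources used here. Deposited log2 fold changes, p-values and FDR of the authors' own comparison were not used.

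Ratios were taken of the deposited means without a pseudocount. Size factors of the 6 libraries (1.25, 1.02 and 0.883 in wild-type, 1.34, 0.945 and 0.725 in 5-LOΔ) were recovered from means of at most 10, which are sums of whole reads each divided by 3 size factors; all means of at most 20 came out whole within the rounding of 6 digits. Values moved off their printed digits came out whole in 0% of cases up to 10 and in 21.8% to 27.4% from 10 to 20. They give the 95% counting intervals, which cover counting error only. The means summed to 10666084 and 12035201 normalized counts; the read totals of single libraries were not analysed here. On simulated data, unique recoveries were right in 100% of 391 wild-type and 386 knockout values, and the intervals held the true ratio in 94% to 95.9% of cases for true log2 ratios of -1.5, -1, 1 and 1.5 (46 to 55 entries each). Box classes, hosts and sequences of snoRNAs came from RefSeq symbols and GENCODE on GRCh37 (228 of 244 matched to a symbol, 174 to a gene, 167 to a host), and miRNA sequences from RefSeq (64 of 74 matched). A Y RNA sequence is not reported here.

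Entries named are, per type, the 5 of highest level, the 4 highest and 4 lowest past 2-fold outside the miR-99b cluster, and the 2 most abundant of each list; other entries were named after their values were seen, for a shared host, seed or library. The members and lists were chosen with earlier results of these data known. Alternatives were other scalings, pseudocounts of 1 and 10, other level and fold limits, duplicates removed and single libraries left out; leaving out piRNA entries with joined names, and rRNA entries from the concentration, was added after seeing the data. The scripts ran under Python 3.11.15 with pandas 2.3.3, scipy 1.17.1, numpy 2.4.6 and, for the plots, matplotlib 3.10.9.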

Additional observations from a re-analysis of the deposited data

How the results depend on the processing

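The shares of the 10 most abundant entries and of like signs in both tables moved by under 1.5 times. The snoRNA median turned from 0.05 to -0.13 and the mature miRNA median fell from 0.22 to 0.04 with equal sums of all entries, and the tRNA median went from -0.43 to -0.68 with no minimum level. Leaving out piRNA entries with joined names, chosen after seeing the data, took the piRNA median from -0.28 to -0.08 and the 2-fold lower count from 19 to 15. Without the 10 most abundant entries, which removes 5S, the log2 ratio of the rRNA share was -0.085 in place of 0.42. The count at least 2-fold higher (8) was 4 with equal sums of all entries, 5 with equal sums of mature miRNAs and 4 with a minimum of 50 in both genotypes. The counts higher and lower (8 and 19) were 46 and 79 with no minimum level, 13 and 30 from a level of 20, 2 and 10 from 200, and 48 and 57 at 1.5-fold. The higher share of these calls, 29.6%, was 12.9% with equal sums of all entries and 15.6% with equal sums of mature miRNAs, scalings that take 0.17 and 0.15 off each ratio. Of the 18 named entries past 2-fold, 13 stayed past it under each of 6 scalings and pseudocounts. Of the low entries, 6 were at least 2-fold higher and 11 lower; with means of at most 10 (28 entries) these were 1 and 3, and 1 and 4 did not overlap. Leaving out each library in turn gave 5 to 8 higher and 7 to 15 lower, the 7 without the 5-LOΔ library of the smallest size factor. No paired analysis was possible because the deposited columns are genotype means without replicate numbers. Counting error is largest for the low entries, and the spread between libraries of abundant entries was not measured.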
